A study of Mus musculus with 6 samples.

Results

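The immunoglobulin genes of the liver were taken as every gene of the deposited count table that encodes a heavy or light chain variable (V) segment, a heavy or light chain constant region or the J chain, and that had a sum of at least 10 counts over the 6 libraries. Of the 55367 gene names in the table, 360 matched by name and 107 passed the sum. Another 138 had no count in any library, and 115 had between 1 and 9 counts. The 107 members were 41 heavy chain V genes (Ighv), 51 kappa V genes (Igkv), 3 lambda V genes (Iglv), 7 heavy chain constant genes, the kappa constant gene Igkc, 3 lambda constant genes (Iglc) and Jchain. Ighe, the constant gene of IgE, did not reach the sum. On GRCm38 the heavy chain constant genes lie on the minus strand of chromosome 12, from Igha (chr12:113254830-113260236) to Ighm (chr12:113418558-113422730). Igkc lies at chr6:70726435-70726966, the lambda genes on chromosome 16 and Jchain at chr5:88519809-88527891. The libraries were prepared from whole liver of C57BL/6J mice after depletion of ribosomal RNA, 3 from Lmln-/- animals (Lmln-KO) and 3 from wild-type animals (WT). Both groups shared the strain and received no treatment that the labels name. The age was 46 weeks in 5 libraries and 39 weeks in Lmln-KO 3. Lmln encodes leishmanolysin-like peptidase, a zinc metalloprotease.

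Antibodies are made of paired heavy and light chains, and each B cell lineage joins one V segment per chain to a constant region. The heavy chain constant gene sets the class: IgM and IgD are used before class switching, IgG and IgA after it. Plasma cells, the secreting end stage of the lineage, carry very large amounts of immunoglobulin mRNA, so that a few of them can contribute much of the signal in a bulk tissue. Liver holds B cells and some plasma cells among its resident and circulating leukocytes, and hepatocytes do not make antibody. In bulk RNA, fewer cells of a type and less RNA per cell cannot be told apart.

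The libraries held between 17388360 and 22494696 counts. Lmln itself gave 4, 12 and 2 counts in Lmln-KO libraries 1, 2 and 3, and 79, 80 and 39 in WT libraries 1, 2 and 3, so the targeted gene followed the labels in all 6. The labels give no sex. Xist, the transcript of the inactive X chromosome, was abundant in Lmln-KO 3, WT 2 and WT 3, and Y-linked transcripts in Lmln-KO 1, Lmln-KO 2 and WT 1. The genotype comparison is unbalanced for this marker, so the summed level is also given within these marker sets and the fits also with a term for them. Alb, the main plasma protein of hepatocytes, was measured at 54011 ± 7568 CPM (counts scaled to library size; SD, n = 3) in the Lmln-KO libraries, so the tissue carried its defining marker.

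Summed over the 107 members, WT 2 and WT 3 carried far more immunoglobulin RNA than the other 4. The sums were 54.3, 29.3 and 45.4 CPM in Lmln-KO 1, 2 and 3, and 58.2, 359 and 560 CPM in WT 1, 2 and 3. The means were 43.0 ± 12.7 CPM for Lmln-KO and 326 ± 253 CPM for WT (SD, n = 3 each), a WT mean 7.58-fold the Lmln-KO mean. The groups did not overlap, but WT 1 lay just above the highest Lmln-KO library, at 1.35-fold the Lmln-KO mean, against 8.36-fold in WT 2 and 13.0-fold in WT 3. The spread within WT was thus larger than the distance between WT 1 and the Lmln-KO libraries. Among the 3 libraries with Xist, the log2 ratio of Lmln-KO 3 to the mean of WT 2 and WT 3 was -3.34. Among the 3 with Y-linked transcripts, that of Lmln-KO 1 and 2 to WT 1 was -0.48. Lmln-KO 3, which shared its marker with WT 2 and WT 3, stayed at the level of the other Lmln-KO libraries and was also the younger one. Even in WT 3, the members made up only 0.0562% of the library, and 0.00282% in Lmln-KO 2, the lowest.

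**Figure D1:**
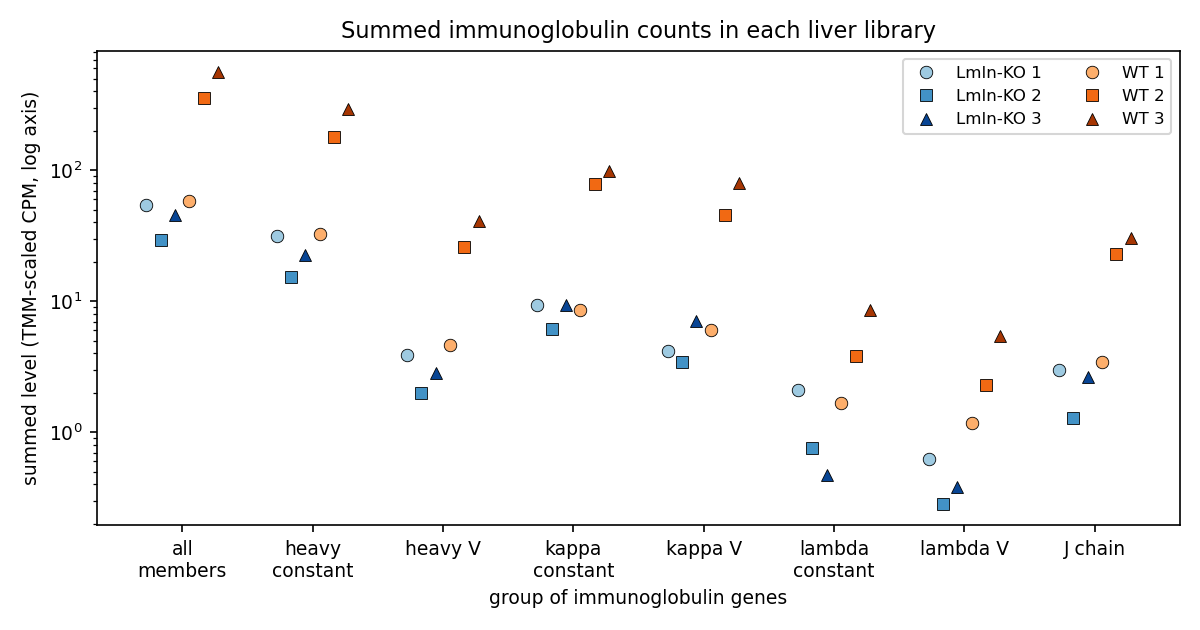
Summed level of each group of immunoglobulin genes (CPM scaled by TMM, log axis) in each of the 6 libraries; blue points are Lmln-KO, orange points WT. WT 2 and WT 3 lay above the other 4 libraries in all 8 groups, while WT 1 lay nearer to the Lmln-KO points.

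Every kind of member took part in this pattern. The heavy chain constant genes together measured 31.2, 15.4 and 22.6 CPM in Lmln-KO 1, 2 and 3 and 32.7, 180 and 294 CPM in WT 1, 2 and 3. The heavy chain V genes measured 3.90, 1.99 and 2.85 CPM against 4.62, 25.9 and 41.2 CPM, and the kappa V genes 4.19, 3.41 and 7.06 CPM against 6.04, 45.6 and 80.4 CPM. The V counts of a library, relative to its constant region counts, were 20.4%, 25.5% and 31.7% in Lmln-KO, and 27.5%, 28.1% and 31.5% in WT. V and constant regions thus moved together from library to library.

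Gene by gene, 103 of the 107 members had a lower fitted level in Lmln-KO than in WT, beside 51.9% of all 25265 genes tested. Many V members passed the sum of 10 mainly through WT 2 and WT 3. All 95 V genes together had 181, 120 and 242 counts in Lmln-KO 1, 2 and 3, and 200, 1383 and 2218 in WT 1, 2 and 3. Direction, median, unadjusted calls and highest library of the members are therefore in part set by that filter. The median log2 fold change (Lmln-KO over WT) of the members was -2.78, and -2.46 when the 13 members with no count in any Lmln-KO library were set at the bound that 3 counts over that group allow. Over all genes tested it was -0.01. By edgeR's quasi-likelihood test none of the 107 was called at an adjusted p of 0.05, nor was any other gene tested (0%), and the adjusted p-values of the members ran from 0.962 to 0.990. At an unadjusted p under 0.05, edgeR placed 46 members lower and 0 higher, beside 3.15% of all genes lower, and limma-voom placed 22 lower, beside 3.02% of all genes, and called 0. DESeq2 called 6 members lower among the 22 genes it called in all (0.0871% of those tested): Ighg1, Ighv1-53, Ighv1-26, Ighg3, Iglv1 and Igkv3-2. In 29 members every Lmln-KO library lay below every WT library (5.93% of all genes tested did), and in 0 members the reverse held (4.53%).

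The library that was highest was WT 2 for 43 members and WT 3 for 54, together 97 of 107, beside 39% of all genes tested. WT 1 lay inside the Lmln-KO range for 66 members, above it for 37 and below it for 4, and 53.4% of all genes had WT 1 inside that range. Without WT 1, edgeR called 4 members lower, Igkc, Ighg1, Ighv1-26 and Ighg2c (adjusted p 0.00469, 0.00504, 0.00504 and 0.0395), and these were all of the genes called (0.0158%). That fit leaves out the only WT library with Y-linked transcripts, which was also the WT library nearest to Lmln-KO in immunoglobulin level. The WT libraries that remain, WT 2 and WT 3, both carried Xist, so genotype and this marker are largely confounded in it. Without WT 2 and WT 3, 55 of the 96 members that could be fitted were below 0, with a median of -0.34, beside 47.8% of all genes, and edgeR called 0. With the Xist and Y marker as a second term in edgeR, all but 5 members were below 0, the median was -2.17 and 0 members were called (1 gene in all, 0.00396%). The same term in DESeq2 left 1 member called, Ighg1 (adjusted p = 3.78e-05), among the 30 genes called in either direction (0.119%, or 0.103% counting the lower ones).

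Ighm, which encodes the IgM heavy chain and is the first class that a B cell expresses, held most of the heavy chain counts. Its counts were 479, 231 and 389 in Lmln-KO 1, 2 and 3, and 391, 2318 and 4461 in WT 1, 2 and 3. WT 1, at 23.1 CPM, stood level with Lmln-KO 1, at 23.0 CPM, and far below WT 2 and WT 3, at 124 and 255 CPM. The log2 fold change was -2.99 (SE 0.999), with an adjusted p of 0.962 in edgeR.

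Ighd and Igha did not share the size of that difference. Ighd, the IgD heavy chain of mature naive B cells, was counted 27, 25 and 21 times in Lmln-KO 1, 2 and 3 and 21, 29 and 54 times in WT 1, 2 and 3. The groups overlapped, and the log2 fold change was -0.80 (SE 0.392, edgeR adjusted p = 0.962). Igha, the IgA heavy chain that plasma cells of mucosal origin use, was counted 114, 44 and 53 times in Lmln-KO and 94, 168 and 99 times in WT. In CPM these were 5.49, 2.08 and 2.25 against 5.56, 8.97 and 5.67. The groups did not overlap, but Lmln-KO 1 and WT 1 were nearly equal, and WT 3, the library with the most immunoglobulin RNA, held about as much Igha as WT 1. The log2 fold change was -1.04 (SE 0.400, edgeR adjusted p = 0.962). Whether these fold changes differ from that of Ighm was not tested.

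The 4 IgG heavy chain genes had the steepest fitted differences of the heavy chain constant genes. In C57BL/6 mice IgG is encoded by Ighg1, Ighg2b, Ighg2c and Ighg3, which are used after class switching in different kinds of immune response. Ighg1 was counted 4, 2 and 6 times in Lmln-KO 1, 2 and 3, and 12, 109 and 101 times in WT 1, 2 and 3. Even WT 1, the low WT library, exceeded every Lmln-KO library. The log2 fold change of Ighg1 was -4.45 (SE 0.903), with an adjusted p of 0.962 in edgeR and 2.9e-05 in DESeq2. With the sex marker term it was -3.62, with an adjusted p of 0.0921 in edgeR.

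Ighg2b was counted 18, 10 and 47 times in Lmln-KO and 19, 451 and 236 times in WT, so the groups overlapped through Lmln-KO 3 and WT 1 (log2 fold change -3.51, SE 1.28). Ighg2c was counted 5, 14 and 14 times in Lmln-KO and 14, 260 and 128 times in WT (log2 fold change -3.86, SE 1.13). Ighg3, an IgG class much used in responses that need no T cell help, was counted 2, 0 and 2 times in Lmln-KO and 2, 36 and 62 times in WT. WT 1 lay within or just above the Lmln-KO range for all 3 of these genes. The log2 fold change of Ighg3 was -4.80 (SE 1.29), with an adjusted p of 0.962 in edgeR and 0.0309 in DESeq2. WT 2 held the most Ighg2b and Ighg2c, and WT 3 the most Ighg3, while Ighg1 was about level in both.

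**Figure D2:**
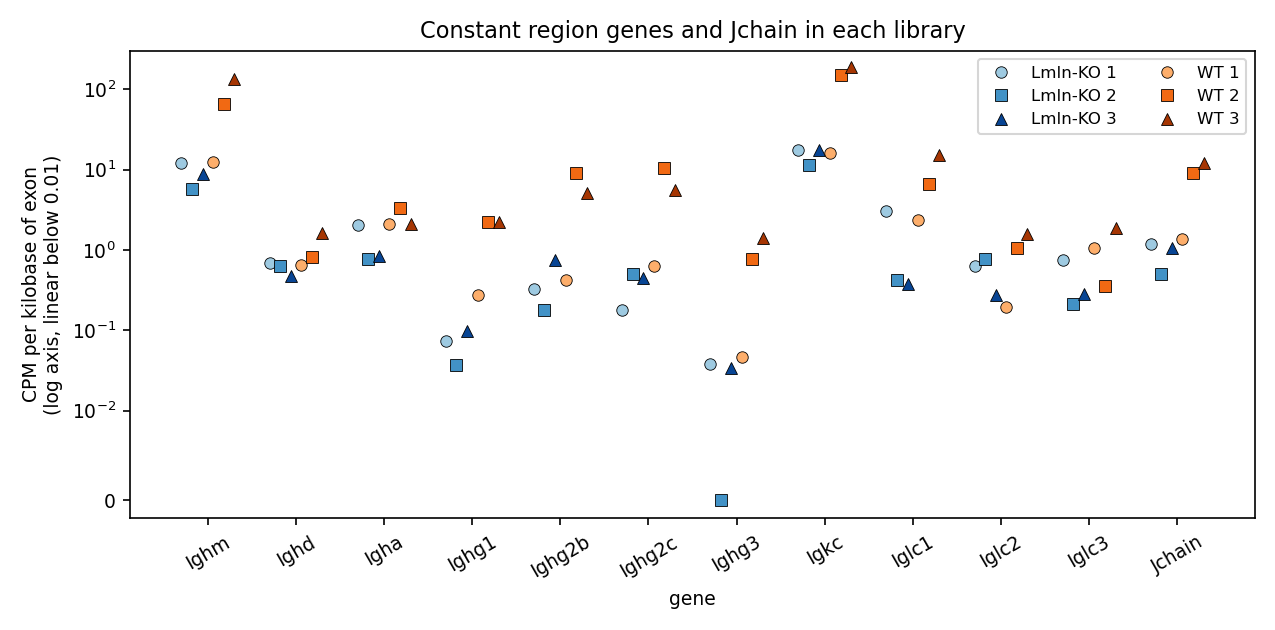
Level of each constant region gene and Jchain per kilobase of exon (CPM per kilobase, log axis, linear below 0.01) in each library; blue points are Lmln-KO, orange points WT. Ighm and Igkc were the highest in all libraries, and WT 2 and WT 3 stood apart for Ighm, Igkc, Jchain and the 4 IgG genes, and less so for Ighd and Igha.

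Class use was read as the share of each class in the heavy chain constant counts of a library, which removes the total amount. IgM led everywhere, at 73.8%, 70.9% and 73.1% in Lmln-KO 1, 2 and 3 and 70.7%, 68.8% and 86.8% in WT 1, 2 and 3. The means were 72.6 ± 1.54% and 75.4 ± 9.89% (SD, n = 3 each), a difference smaller than the spread within WT. The interval of WT 3, 85.8% to 87.7% (Wilson, 95%), lay above those of the other 5 libraries, of which the highest reached 77.0%. Such intervals cover counting error only, and they are narrower than the number of molecules allows, since each read of a pair adds 1 count.

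IgA and IgD divided the libraries along the same line as the total, and IgG did not. IgA took 17.6%, 13.5% and 9.96% of heavy chain constant counts in Lmln-KO 1, 2 and 3, and 17% in WT 1, but 4.98% in WT 2 and 1.93% in WT 3. IgD took 4.16%, 7.67% and 3.95% in Lmln-KO and 3.80% in WT 1, but 0.860% and 1.05% in WT 2 and WT 3. IgG took 4.47%, 7.98% and 13.0% in Lmln-KO, and 8.5%, 25.4% and 10.3% in WT 1, 2 and 3. WT 2 was thus the IgG-rich library and WT 3 the IgM-rich one, although both had little IgA and IgD for their amount. Switched classes (IgG and IgA together) made up 22.1 ± 0.736% in Lmln-KO and 22.7 ± 9.42% in WT (SD, n = 3 each), so the means hardly differed.

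Ratios within a library, taken from the same counts as these shares, restate the division. There were 17.7, 9.24 and 18.5 Ighm counts per Ighd count in Lmln-KO 1, 2 and 3 and 18.6 in WT 1, against 79.9 in WT 2 and 82.6 in WT 3. IgG counts per Igha count were 0.254, 0.591 and 1.30 in Lmln-KO and 0.5 in WT 1, against 5.10 and 5.32 in WT 2 and WT 3. In both ratios WT 2 and WT 3 were alike. WT 1 lay just above the Lmln-KO range in the former and inside it in the latter. Corrected for the exon lengths of the genes, the IgM share was 78.4%, 73.3% and 76.8% in Lmln-KO and 74.9%, 71.1% and 88.3% in WT, with the same library at the top.

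Within IgG, Ighg2b and Ighg2c were the most used. By counts Ighg2b was 62.1%, 38.5% and 68.1% of IgG in Lmln-KO 1, 2 and 3, on 29, 26 and 69 IgG counts, and 40.4%, 52.7% and 44.8% in WT, on 47, 856 and 527. Per kilobase of exon Ighg2c led in Lmln-KO 2 and in all 3 WT libraries (70.1%, 45.7%, 46.6% and 38.9%); its counted exons span 1326 bases, against 2678 for Ighg2b. With under 100 IgG counts in each of the Lmln-KO libraries and WT 1, the order of the subclasses was not resolved there.

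**Figure D3:**
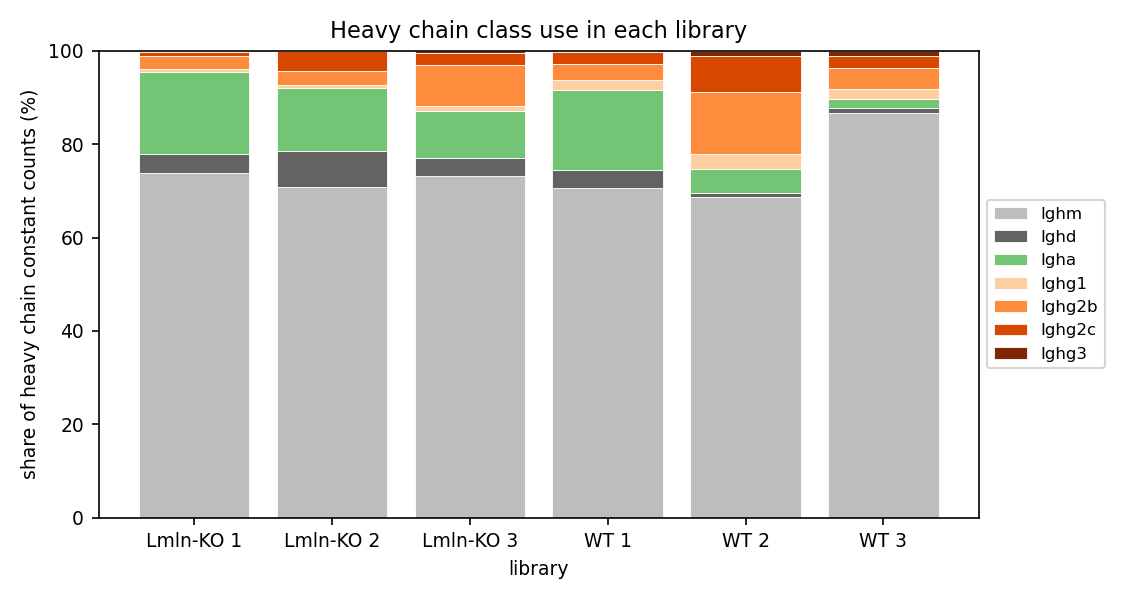
Share of each heavy chain class in the heavy chain constant counts of each library (percent, bars stacked to the whole), with IgM in grey, IgD in dark grey, IgA in green and the IgG genes in orange to brown. IgA and IgD were thin in WT 2 and WT 3, IgG reached 25.4% in WT 2, and IgM 86.8% in WT 3.

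Kappa light chains dominated in every library, the usual state in mice. Igkc was counted 193, 129 and 220 times in Lmln-KO 1, 2 and 3, and 145, 1476 and 1738 times in WT 1, 2 and 3. WT 1 lay among the Lmln-KO libraries, and the log2 fold change was -2.92 (SE 0.998, edgeR adjusted p = 0.962). Lambda constant genes held 18.6%, 11% and 4.76% of light chain constant counts in Lmln-KO, and 16.2%, 4.59% and 7.99% in WT, with no separation of the groups.

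Of the lambda constant genes, Iglc1 carried most of the difference, with 29, 4 and 4 counts in Lmln-KO and 18, 56 and 119 in WT (log2 fold change -2.64, SE 1.04). Its groups overlapped through Lmln-KO 1 and WT 1. Iglc2, with 8, 10 and 4 against 2, 12 and 17 counts, and Iglc3, with 7, 2 and 3 against 8, 3 and 15, were low in all libraries and overlapped. Their log2 fold changes were -0.76 (SE 0.706) and -1.39 (SE 0.763), and that of Iglc2 was 1.48 without WT 2 and WT 3. Jchain, the small protein that joins IgM and IgA into polymers and that antibody-secreting cells express, followed Ighm, with 62, 27 and 62 counts in Lmln-KO and 58, 430 and 533 in WT. The log2 fold change was -3.04 (SE 0.930, edgeR adjusted p = 0.962). Relative to the heavy chain constant counts Jchain was steady, at 9.55%, 8.28% and 11.7% in Lmln-KO and 10.5%, 12.8% and 10.4% in WT. Of the 11 constant genes and Jchain, 12 of 12 were below 0, with a median log2 fold change of -2.95, and 6 had groups that did not overlap, beside 5.93% of all genes tested.

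Among the V genes, 91 of 95 were below 0: 39 of 41 Ighv (median log2 fold change -2.98), 49 of 51 Igkv (median -2.46) and 3 of 3 Iglv (median -2.77). Groups did not overlap, with Lmln-KO lower, in 10, 11 and 2 of them, beside 5.93% of all genes tested. Many V genes passed the sum of counts mainly through WT 2 and WT 3, which in part sets these numbers. The number of V genes with a count was 52, 35 and 58 in Lmln-KO 1, 2 and 3, and 56, 91 and 89 in WT 1, 2 and 3, and 15 were counted in all 6 libraries. V genes are short and alike, and reads of 36 bases cannot always tell them apart. The share of 36-base windows found in no other annotated transcript had a median of 54.7% over Ighv (range 3.32% to 95%) and of 52.9% over Igkv (range 16.2% to 100%), and 36 V members were under 50%. Counts of a V gene may therefore hold reads of its relatives or miss reads of its own, whereas Ighm, Igkc, Igha, Ighd and Iglc1 were unique in all windows. Single V genes below are given as annotated, with this limit.

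Igkv3-2 was the leading kappa V gene by summed counts. The gene lies at chr6:70698449-70699067 on the plus strand (GRCm38), and Igkv3-5, a relative of the same subgroup that was prominent only by its count of 108 in WT 3, at chr6:70663275-70663895 on the plus strand. Both are intact V genes by GENCODE M21, which holds the coordinates of the counted annotation. The first 300 bases of the germline coding sequence are shown because differences between such relatives are what separates their reads: the 2 genes differ at 32 of 359 positions in all (91.1% identical). Capitals mark the differing bases, and 15.2% of the windows of Igkv3-2 are shared with Igkv3-5.
Igkv3-2: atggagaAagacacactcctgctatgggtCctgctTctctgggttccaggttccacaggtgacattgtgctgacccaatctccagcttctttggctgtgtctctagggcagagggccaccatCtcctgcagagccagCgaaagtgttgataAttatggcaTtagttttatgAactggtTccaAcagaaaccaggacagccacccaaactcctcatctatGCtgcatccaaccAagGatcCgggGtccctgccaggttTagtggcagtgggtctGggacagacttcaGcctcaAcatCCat
Igkv3-5: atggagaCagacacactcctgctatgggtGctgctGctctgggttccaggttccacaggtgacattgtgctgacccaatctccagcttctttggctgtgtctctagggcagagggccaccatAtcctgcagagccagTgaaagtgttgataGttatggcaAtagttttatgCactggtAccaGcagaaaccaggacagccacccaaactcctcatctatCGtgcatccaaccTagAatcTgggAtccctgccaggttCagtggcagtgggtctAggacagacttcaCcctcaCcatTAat

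Igkv3-2 was counted 11, 18 and 8 times in Lmln-KO 1, 2 and 3, and 19, 311 and 682 times in WT 1, 2 and 3. WT 2 and WT 3 stood far above the rest, and WT 1 just above Lmln-KO 2. The log2 fold change was -5.04 (SE 1.5), with an adjusted p of 0.962 in edgeR and 0.0387 in DESeq2. It took 12.6%, 25.0% and 4.82% of kappa V counts in Lmln-KO and 18.6% in WT 1, against 36.4% (33.2% to 39.6%, Wilson 95%) in WT 2 and 48.6% (46.0% to 51.2%) in WT 3. It was the most counted Igkv gene in 5 libraries. In Lmln-KO 3, Igkv6-25 and Igkv3-4 tied at the top with 15 counts each, 9.04% of 166. The whole Igkv3 subgroup, with 6 members, held 17.2%, 37.5% and 18.7% in Lmln-KO, and 21.6%, 42.5% and 60.6% in WT.

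The evenness of kappa V use followed Igkv3-2. The effective number of V genes, the number of equally used genes that would give the same chance that a pair of counts falls on 1 gene, was 16.9, 11.2 and 25.0 in Lmln-KO 1, 2 and 3, and 17.5, 6.71 and 3.96 in WT 1, 2 and 3. WT 2 and WT 3 had the lowest values although they had the most counts. Since each read of a pair adds 1 count, pairs that fall on 1 gene lower this number, and more so in libraries with few counts. Drawn down to 72 counts, the depth of the shallowest library, the expected number of genes was 25.3, 20 and 28.8 in Lmln-KO, and 26.0, 24.8 and 20.01 in WT, and on this measure neither WT 2 nor WT 3 lay outside the Lmln-KO range. Leaving out Igkv3-2, the effective numbers were 17.2, 19.1 and 23.9 in Lmln-KO, and 27.4, 23.7 and 15.7 in WT. WT 2 then lay close to Lmln-KO 3, WT 1 above the Lmln-KO range and WT 3 below it. The remaining kappa V counts still measured 29.0 and 41.3 CPM in WT 2 and WT 3, against 4.91 CPM in WT 1 and at most 6.72 CPM in Lmln-KO, so the excess was not that of 1 gene.

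**Figure D4:**
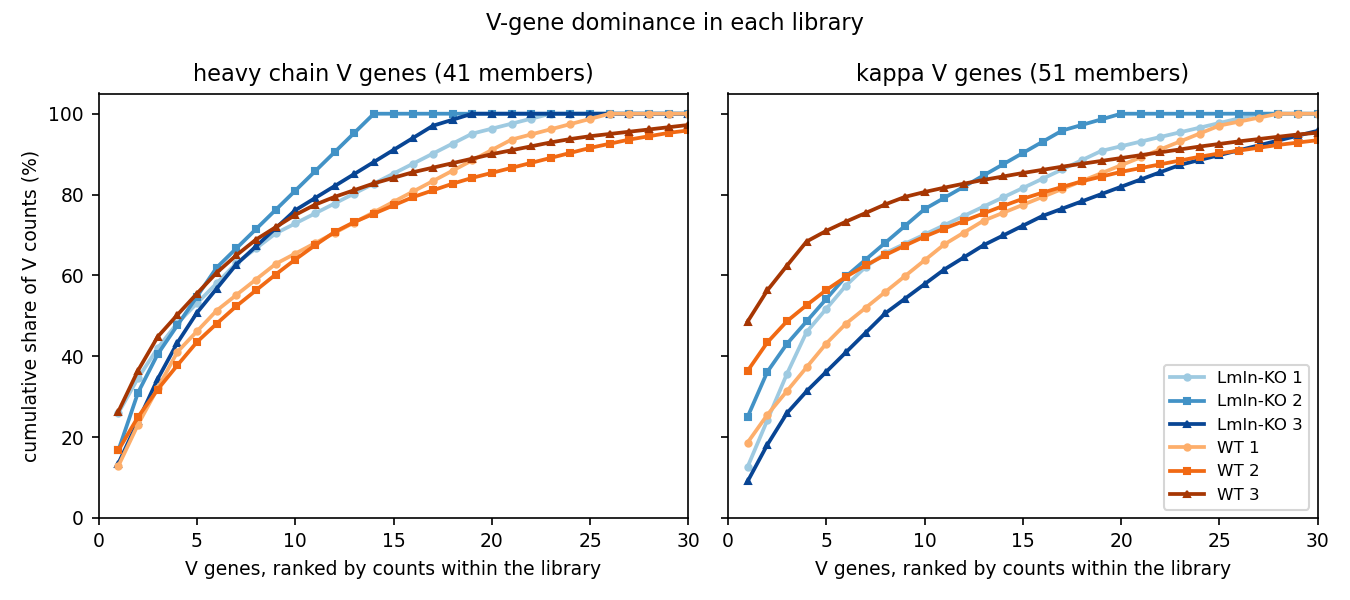
Cumulative share of V counts (percent) against the rank of the V gene by counts within each library, for heavy chain V genes on the left and kappa V genes on the right; blue lines are Lmln-KO, orange lines WT. The kappa curves of WT 2 and WT 3 start at 36.4% and 48.6%, above the other 4, while the heavy chain curves start between 12.8% and 26.3% with no order by genotype.

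Heavy chain V use had a different leader in most libraries. In Lmln-KO 1 it was Ighv8-8, with 21 of 81 counts (25.9%, Wilson 95% interval 17.6% to 36.4%), in Lmln-KO 2 Ighv1-56, with 7 of 42 (16.7%), and in Lmln-KO 3 Ighv1-50, with 9 of 67 (13.4%). In WT 1 it was Ighv1-53, with 10 of 78 (12.8%), in WT 2 Ighv1-26, with 81 of 485 (16.7%, 13.7% to 20.3%), and in WT 3 Ighv1-53, with 189 of 719 (26.3%, 23.2% to 29.6%). The leaders of the Lmln-KO libraries rest on 7 to 21 counts, and the number of fragments may be smaller, since each read of a pair adds 1 count. The effective number was 11.2, 14.6 and 16.9 in Lmln-KO 1, 2 and 3, and 20.3, 16.9 and 9.82 in WT 1, 2 and 3. The groups overlapped, and WT 3 was the least even. As for kappa, read pairs lower the effective number more in the Lmln-KO libraries and WT 1, which had few counts. At 42 counts the expected number of genes was 18.4, 14.0 and 17.1 in Lmln-KO, and 20.8, 20.3 and 17.3 in WT.

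Ighv1-53 was counted 5, 3 and 4 times in Lmln-KO 1, 2 and 3, and 10, 33 and 189 times in WT 1, 2 and 3, so that WT 3 held most of it (log2 fold change -4.53, SE 1.35, DESeq2 adjusted p = 0.00102). Ighv1-26 was counted 2 times in each Lmln-KO library and in WT 1, and 81 and 60 times in WT 2 and WT 3 (log2 fold change -4.75, SE 1.26, DESeq2 adjusted p = 0.00599). Both had an adjusted p of 0.962 in edgeR. Only 31.6% of the windows of Ighv1-53 and 31.3% of those of Ighv1-26 are unique, with 38.0% of the former also in Ighv1-69 and 36.1% of the latter in Ighv1-18. The Ighv1 subgroup, the largest in this strain, held 60.5%, 71.4% and 56.7% of heavy chain V counts in Lmln-KO, and 78.2%, 74.4% and 81.5% in WT over its 29 members.

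How far reads can be shared is shown by Ighv1-53 and Ighv1-62, which GENCODE M21 lists as a V pseudogene and which passed the sum. Ighv1-53 lies at chr12:115158403-115158835 and Ighv1-62 at chr12:115371986-115372433, both on the minus strand (GRCm38). They differ in 13 of 351 aligned columns (96.3% identical), 1 of which is a base that Ighv1-62 lacks, and 33.9% of the windows of Ighv1-53 also occur in Ighv1-62. The first 300 aligned columns of the germline sequences are shown, with capitals at the differing bases.
Ighv1-53: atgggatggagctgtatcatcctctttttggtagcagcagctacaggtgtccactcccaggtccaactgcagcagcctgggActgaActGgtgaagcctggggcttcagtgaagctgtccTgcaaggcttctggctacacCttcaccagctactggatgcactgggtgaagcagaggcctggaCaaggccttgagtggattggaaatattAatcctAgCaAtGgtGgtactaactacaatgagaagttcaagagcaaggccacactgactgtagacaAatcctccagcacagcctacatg
Ighv1-62: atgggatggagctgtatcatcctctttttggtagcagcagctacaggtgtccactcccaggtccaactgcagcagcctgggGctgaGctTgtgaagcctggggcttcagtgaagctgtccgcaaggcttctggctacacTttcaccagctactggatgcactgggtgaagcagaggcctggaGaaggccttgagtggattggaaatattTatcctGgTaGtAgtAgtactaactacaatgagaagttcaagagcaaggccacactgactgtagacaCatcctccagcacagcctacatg

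Ighv1-62 had no count in Lmln-KO and 4, 5 and 22 counts in WT 1, 2 and 3, at least 12.7-fold lower in Lmln-KO when 3 counts over that group are taken as the limit. Its count was highest in WT 3, the library with the most Ighv1-53, and how many of its reads came from Ighv1-53 was not tested. Igkv4-68 likewise had no count in Lmln-KO and 4, 6 and 11 in WT, at least 8.62-fold lower. Both bounds take the counts as independent, and they would be smaller for pairs of reads, since each read of a pair adds 1 count. In both genes WT 1 lay above the Lmln-KO libraries. Ighv1-64, with 2, 0 and 0 against 4, 17 and 38 counts, stood at a log2 fold change of -4.91 (SE 1.14), and Igkv5-43, with 0, 0 and 2 against 4, 24 and 4 counts, at -4.02 (SE 1.17). Both had an adjusted p of 0.962 in edgeR.

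Lambda V use was simple in all libraries. Iglv1, the V gene of the most used mouse lambda chain, was the leader throughout, with 11, 6 and 6 counts in Lmln-KO 1, 2 and 3, and 19, 29 and 82 in WT 1, 2 and 3. The groups did not overlap. Iglv1 had the smallest unadjusted p of all members in edgeR, 0.00166, at a log2 fold change of -2.77 (SE 0.618), with an adjusted p of 0.962 in edgeR and 0.0352 in DESeq2. Of its windows, 33.1% also occur in Iglv2.

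WT 2 and WT 3 shared some of their V genes and differed in others. Of the 10 most counted Igkv genes in each library, 1 was common to both, Igkv3-2, and of the 10 most counted Ighv genes 5 were. The V use common to both, summed as the smaller share of each gene, was 59.0% for Igkv, most of it Igkv3-2, and 52.2% for Ighv. Both were the highest of the 15 pairs of libraries, of which the next reached 53.5% for Igkv (Lmln-KO 2 and WT 3) and 48.3% for Ighv (Lmln-KO 1 and WT 1), and WT 2 and WT 3 also had the most V counts. Across genes, Spearman's rho between the shares of WT 2 and WT 3 was 0.04 over 51 Igkv and 0.18 over 41 Ighv genes, where genes of a library share its depth and are not independent.

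Several V genes, named here after their values were seen, were abundant in only 1 of these libraries. Ighv1-81 had 40 counts in WT 2 and 0 in every other library, and Igkv5-39 had 60 in WT 2 against 10 in WT 3. Igkv12-46 had 86 counts in WT 3 against 3 in WT 2, and Igkv3-5 had 108 against 8. Members with at least 90% of their summed CPM in 1 library numbered 3 for WT 2, Ighv1-81, Igkv4-58 and Ighv1-66, and 1 for WT 3, Igkv14-100. The 4 members with a fitted level above 0 were Igkv14-126, Igkv4-72, Ighv1-56 and Ighv8-8, all of them V genes.

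**Figure D5:**
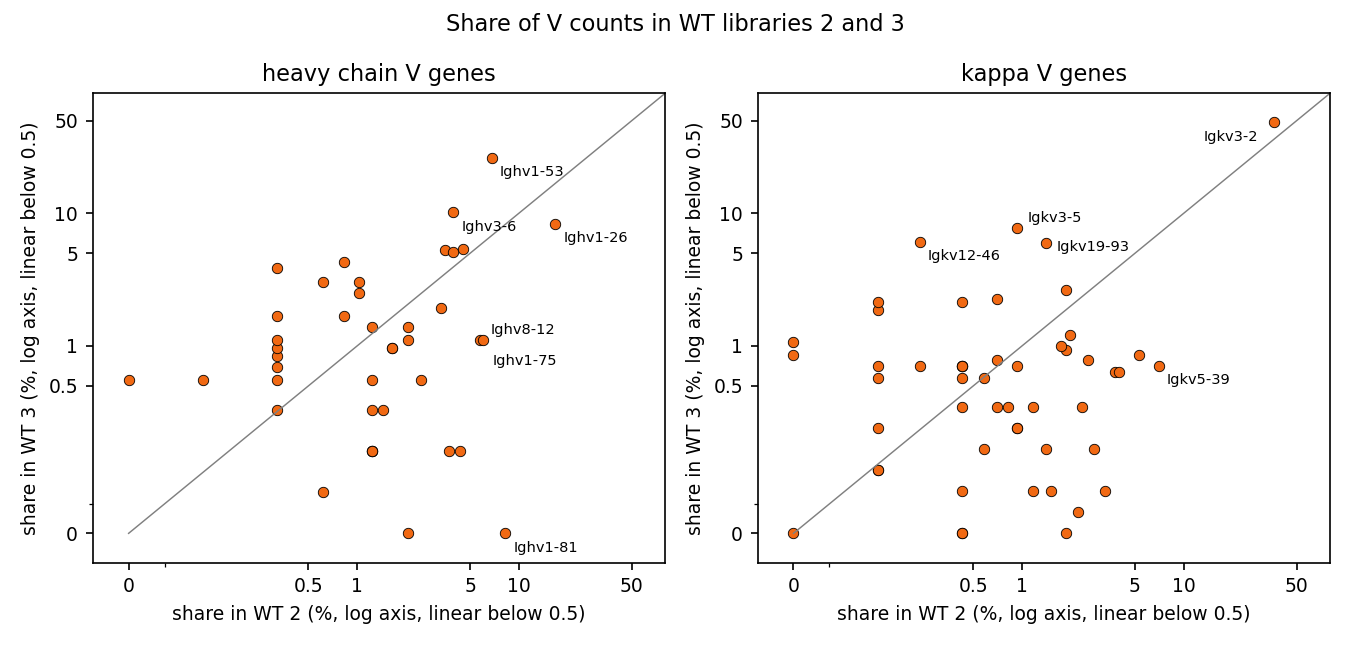
Share of each V gene in the V counts of WT 2 (percent, horizontal) and of WT 3 (percent, vertical), on log axes that are linear below 0.5, for 41 heavy chain and 51 kappa V genes; the line marks equal shares. Igkv3-2 lies near the line at 36.4% and 48.6%, while Ighv1-81, with 40 counts in WT 2 and 0 in WT 3, and Igkv12-46, with 3 and 86, lie far from it.

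Genes near the limit of 10 counts were all V genes and varied in pattern. Just inside, with a sum of 10, were Igkv1-135, Igkv4-63, Igkv12-41, Igkv8-19, Ighv10-1, Ighv1-20, Ighv1-52, Ighv1-66 and Ighv1-74. Just outside, with a sum of 9, were Igkv1-99, Igkv12-98, Igkv4-56, Igkv8-27, Igkv3-3, Ighv14-4 and Ighv1-78. Ighv1-66 had all 10 of its counts in WT 2. Only 13 of the 107 members passed edgeR's own filter on low counts, and over these 13 the median log2 fold change was -3.0 with 0 called.

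Other genes of the B lineage differed less than the immunoglobulin genes. The 15 B cell genes measured, among them the receptor subunits Cd79a and Cd79b and the transcription factors Pax5 and Ebf1, summed to 19.1, 16.5 and 18.2 CPM in Lmln-KO 1, 2 and 3, and to 21.0, 30.1 and 55.6 CPM in WT 1, 2 and 3. WT 3 was again the highest and WT 1 the lowest of WT, yet the range was far narrower than for immunoglobulin. All 15 were below 0, with a median log2 fold change of -1.31, and 6 had groups that did not overlap (5.93% of all genes tested). An unadjusted p under 0.05 was reached by 11 of them in edgeR (3.15% of all genes, lower), while edgeR, DESeq2 and limma-voom called 0. Without WT 2 and WT 3 the median was -0.33, and with the sex marker term -1.03. Immunoglobulin CPM per CPM of the B cell list was 2.85, 1.77 and 2.5 in Lmln-KO and 2.78 in WT 1, against 11.9 in WT 2 and 10.1 in WT 3. The latter libraries thus had more immunoglobulin RNA per unit of B cell transcripts.

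Among the B cell genes with the smallest p in edgeR were Ms4a1, which encodes CD20, Ebf1 and Cd79b, with log2 fold changes of -1.66 (SE 0.477), -1.22 (SE 0.361) and -1.61 (SE 0.504). Each had an adjusted p of 0.962 in edgeR. Ms4a1 was counted 18, 10 and 12 times in Lmln-KO and 16, 34 and 54 times in WT. WT 1 lay just above Lmln-KO 1 in CPM (0.947 against 0.866), and WT 3 was the highest.

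Of 14 plasma cell genes 13 were tested, of which 9 were below 0 and 4 above, with a median of -1.08. At an unadjusted p under 0.05 edgeR placed 2 lower and 1 higher, beside 3.15% of all genes lower, and edgeR, DESeq2 and limma-voom called 0. Groups did not overlap in 1 gene with Lmln-KO lower and in 1 with Lmln-KO higher (5.93% and 4.53% of all genes tested). Pou2af1, the octamer coactivator of immunoglobulin genes, was counted 12, 10 and 15 times in Lmln-KO and 10, 53 and 107 times in WT, with WT 3 and WT 2 the highest (log2 fold change -2.48, SE 0.770, edgeR adjusted p = 0.962). Mzb1, a chaperone of IgM assembly, was counted 1, 4 and 5 against 3, 11 and 8 times, and Tnfrsf17, the plasma cell receptor BCMA, had no count in any library. Xbp1 and Sdc1, which plasma cells need or display, are also strongly expressed by hepatocytes, and the list sum, 679, 633 and 563 against 593, 543 and 737 CPM, mostly holds such genes. Xbp1 was the reverse of the antibody genes, with a log2 fold change of 0.48 (SE 0.154, edgeR adjusted p = 0.962). Prdm1 and Slamf7 measured -1.36 (SE 0.533) and -1.24 (SE 0.571), and the groups overlapped in both. Prdm1 stood at 0.866, 1.18 and 0.340 CPM in Lmln-KO 1, 2 and 3, and at 2.84, 0.908 and 2.40 CPM in WT 1, 2 and 3. Unlike the antibody genes, it was highest in WT 1, and WT 2 lay inside the Lmln-KO range. Slamf7 was counted 13, 9 and 26 times in Lmln-KO and 14, 21 and 56 times in WT.

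In the RefSeq promoter windows of GRCm38.p6, that of Jchain holds neither the octamer ATTTGCAT nor its reverse complement ATGCAAAT, the element that Pou2af1 is known for acting through, which 1.74% of all 32851 windows hold. The heptamer CTCATGA or TCATGAG, in 2.67% of all windows, was also not found there. Jchain was the 1 member with a window, so the promoters of the V genes and constant genes were not examined.

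Of the 7 genes for surrogate light chain and recombination, 3 reached the sum, and Dntt and Vpreb1 were at low counts in both groups. Ltb was the 1 gene of the lymph node and ectopic lymphoid stroma list that was tested, at a log2 fold change of -0.99 (SE 0.479). Madcam1 and Glycam1 had no count in any library, and Ccl19 and Ccl21a had none in the WT libraries. The 12 T and NK cell genes summed to 3.18, 4.60 and 3.06 CPM across Lmln-KO and to 4.50, 6.46 and 9.45 CPM in WT, with 11 below 0, a median of -1.25 and 4 without overlap (5.93% of all genes tested). The 4 with the smallest p in edgeR, Trac, Nkg7, Cd8a and Klrb1c, had log2 fold changes of -1.51, -2.18, -2.27 and -1.5, 3 of the list had an unadjusted p under 0.05 (3.15% of all genes, lower), and edgeR, DESeq2 and limma-voom called 0. T and NK cell transcripts were thus highest in WT 2 and WT 3, as the immunoglobulin genes were. Among the other 4 libraries Lmln-KO 2 had the highest T and NK cell sum and the lowest immunoglobulin sum. That sum rests largely on Cd4, the 1 gene of the list above 0, which gave 2.18 of its 4.60 CPM. The part of T and NK cells in the result was not tested.

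The genes for immunoglobulin transport and Fc receptors differed little. Pigr, the receptor that carries polymeric IgA and IgM into bile, measured 1628, 1642 and 1954 CPM across Lmln-KO and 1797, 2008 and 1953 CPM across WT. The 9 transport and Fc receptor genes had a median log2 fold change of 0.02, with 4 below 0 and 5 above. Fcgr1, Fcer1g and Fcgrt measured 0.39 (SE 0.294), -0.26 (SE 0.230) and -0.10 (SE 0.169), and edgeR, DESeq2 and limma-voom called 0, with 0 at an unadjusted p under 0.05 in edgeR. Of 10 tested genes for B cell survival and homing, 8 were below 0, with a median of -0.60 and 4 without overlap (5.93% of all genes tested). In edgeR 4 had an unadjusted p under 0.05 (3.15% of all genes, lower), and edgeR, DESeq2 and limma-voom called 0. Cxcr4, the receptor that retains plasma cells in bone marrow, measured -2.03 (SE 0.634), Ccr9 -0.55 (SE 0.205) and Tnfsf13, the survival factor APRIL, -1.32 (SE 0.517). Il6 had no count in Lmln-KO and 1, 9 and 4 counts in WT. Hepatocyte, Kupffer cell, neutrophil and erythroid lists had medians of -0.09, -0.17, -0.19 and 0.11, and edgeR, DESeq2 and limma-voom called 0 in each. An unadjusted p under 0.05 in edgeR was reached by 1 Kupffer cell gene, lower, and 0 of the others (3.15% of all genes, lower).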

How the data were processed

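Whole-liver RNA of 3 Lmln-KO and 3 WT libraries was sequenced as paired 36-base reads. The deposited values are whole-number counts per gene name, made, per the file headers, with featureCounts 2.0.1 over exons of Ensembl release 102 (GRCm38). The header's command line sets no option for pairs, strand or multiply mapped reads, so each read of a pair adds 1 count and reads from an antisense gene are not separated. Subread 2.0.2 and edgeR 3.36.0 appear beside featureCounts in the submitters' processing notes, with an aligner not given in the sources used here.

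Genes with a sum of at least 10 counts (25265) were tested on the counts as deposited with edgeR 4.0.16 in R 4.3.3 (TMM scaling, robust quasi-likelihood fit on genotype, Benjamini-Hochberg adjustment over all genes, threshold 0.05). Alternatives included DESeq2 1.42.0 and limma-voom 3.58.1. The fit was tested on simulated counts. Levels are TMM-scaled CPM. Shares carry Wilson 95% intervals. The unique share of a gene is that of its 36-base windows found in no other gene's transcript of GENCODE M21.

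The members and lists were chosen with earlier results of these data known, so no list was tested as a set. The labels number the libraries without saying that each came from its own animal, and p-values measure only the spread between these libraries; with 3 against 3 an exact test cannot go below 0.10. Named were the constant genes and Jchain, the most counted V gene of each library, the 8 members with the smallest p, up to 4 genes of a context list with the smallest p, Lmln, and members near the sum of 10. Lists of cells other than lymphocytes are given by their medians. Some genes of the context lists are not reported here by name.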

Additional observations from a re-analysis of the deposited data

How the results depend on the processing

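The number of genes called over the whole table moved from 0 in edgeR to 3 with a minimum of 1 count, 22 with DESeq2, 1 with the sex-marker term, 30 with DESeq2 and that term (chosen after seeing the data), and 0 to 4 on leaving out 1 library, the 4 without WT 1. The immunoglobulin genes called were 6 with DESeq2, 1 with DESeq2 and the sex-marker term, and 0 to 4 on leaving out 1 library, the 4 again without WT 1. The cause was not tested. With the replicate block, 2 genes and 0 immunoglobulin genes were called and the median of the members was -2.51. Same-numbered libraries correlated at 0.60, -0.42 and 0.51 in their deviations from the group means. Whatever the numbers, Lmln-KO and WT libraries that shared the Xist or Y marker correlated positively and those that did not correlated negatively. These values therefore cannot show whether the numbers are pairs, and the labels do not say so, so they were not taken as pairs. The median log2 fold change of the members stayed below 0 in every setting run, from -3.17 without Lmln-KO 3 to -1.88 without WT 3, but was -0.34 without WT 2 and WT 3 together (chosen after seeing the data), where Iglc2 reversed to 1.48. Without the most counted member of each library the mean levels were 26.1 (Lmln-KO) and 192 CPM (WT). Per kilobase the IgM share was 76.2% in Lmln-KO. Requiring 100 counts per V gene leaves few genes, and the top share then averaged 53.4% in Lmln-KO and 63.7% in WT for Ighv, and 64.1% and 81.7% for Igkv. The other 96 values of the main comparisons kept their direction and call or moved within the spread. Among single genes 270 values did so and 11 passed the threshold only under an alternative. Depth limits the Lmln-KO libraries and WT 1 most, with 42 to 81 heavy chain V counts each.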
